A study of Homo sapiens with 4 samples.

Results

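HNF4A and HNF4G encode the nuclear receptors hepatocyte nuclear factor 4 alpha and gamma, and their open chromatin was compared between pancreatic progenitors cultured with DMSO and with the BET inhibitor I-BET151. The ATAC-seq peaks of the 4 libraries were merged wherever they overlapped by at least 1 bp, which gave 164301 regions. Of these, 29 overlapped the gene body of HNF4A or HNF4G (GENCODE release 44) extended by 20 kb on each side: 12 at HNF4A (ENSG00000101076) and 17 at HNF4G (ENSG00000164749). The regions are numbered along the plus strand, on which both genes lie. They were chosen by position, but a region exists only where a peak was called in at least 1 of the 4 libraries.

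The cells were pancreatic progenitors differentiated from MEL1, an established human embryonic stem cell line, named MEL1 INS GFP/W in the study's methods for the GFP reporter at its insulin gene. All 4 libraries came from cells in EF6 medium, which is DMEM with B27, EGF, bFGF and 616452, an inhibitor of the TGF-beta receptor. The DMSO group (2 libraries) received the solvent, and the I-BET151 group (2 libraries) received 1 μM I-BET151, a small molecule that occupies the acetyl-lysine pockets of the BET proteins, in both cases for 7 days. Each library was made from 50000 cells with the Tn5 transposase, which cuts and tags accessible DNA. All libraries derive from 1 cell line, and the labels do not say whether the libraries of a group came from separate cultures, so p-values measure the spread between these libraries only.

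HNF4 proteins bind DNA as homodimers at direct repeats of a hexamer and regulate genes of lipid, glucose and bile acid metabolism in liver, intestine, kidney and pancreas. HNF4A has alternative promoters: P1 drives the isoforms typical of adult liver and kidney, and the upstream P2 drives the isoforms typical of pancreatic cells and their progenitors, so that the proteins differ at their N-termini. Inherited loss-of-function changes in HNF4A cause a monogenic form of diabetes (MODY), and HNF4G is the paralogue best known from intestinal epithelium.

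The following HNF4A sequences carry the comparisons at that gene: both promoters, the intronic region with the highest mean percentile at the gene and the region that was called only with I-BET151. The promoters are the RefSeq windows (GRCh38.p14, plus strand), P2 at chr20:44355449-44355748 and P1 at chr20:44400989-44401288, each of 300 bases around the first start site. The windows of regions 2 (chr20:44370835-44371035) and 6 (chr20:44394662-44394862) span 100 bases on each side of the summit in hg38, also on the plus strand. Capitals mark exact matches, on either strand, to short motifs of factors known from liver and pancreas.
HNF4A P2 promoter: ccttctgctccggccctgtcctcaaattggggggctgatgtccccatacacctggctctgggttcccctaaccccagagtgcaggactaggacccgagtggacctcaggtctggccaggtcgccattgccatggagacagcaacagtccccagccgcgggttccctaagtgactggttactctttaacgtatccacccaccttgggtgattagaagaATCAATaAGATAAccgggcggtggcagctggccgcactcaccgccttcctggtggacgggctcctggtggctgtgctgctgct
HNF4A P1 promoter: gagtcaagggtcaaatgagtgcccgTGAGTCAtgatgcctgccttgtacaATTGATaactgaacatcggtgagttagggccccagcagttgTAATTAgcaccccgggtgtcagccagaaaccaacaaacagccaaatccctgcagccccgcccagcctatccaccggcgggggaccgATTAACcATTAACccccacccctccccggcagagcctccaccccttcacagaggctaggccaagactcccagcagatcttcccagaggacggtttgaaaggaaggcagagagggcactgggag
HNF4A region 2: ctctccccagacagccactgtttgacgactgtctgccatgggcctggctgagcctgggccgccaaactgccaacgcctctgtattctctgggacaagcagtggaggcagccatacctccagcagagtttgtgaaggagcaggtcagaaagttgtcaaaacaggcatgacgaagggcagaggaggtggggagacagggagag
HNF4A region 6: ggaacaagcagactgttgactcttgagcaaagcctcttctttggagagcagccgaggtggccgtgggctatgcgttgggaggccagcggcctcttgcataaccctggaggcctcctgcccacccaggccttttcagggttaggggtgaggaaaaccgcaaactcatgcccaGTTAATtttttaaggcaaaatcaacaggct

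The core searched for HNF4 itself was CAAAGTC, and the core searched for HNF1 was GTTAAT. For the pioneer factors of the FOXA family it was TGTTTAC, and for HNF6, the product of ONECUT1, it was ATCAAT. For the GATA factors it was AGATAA, and for homeobox factors such as PDX1 it was TAATTA. For the SOX factors it was ACAATG, for AP-1 it was TGACTCA, and CTCF was searched by its consensus. Counted from 0 at the start site, the P2 promoter held an HNF6 match from -33 to -28 and a GATA match from -26 to -21. The P1 promoter held a pair of HNF1 matches 1 base apart, from -73 to -68 and from -66 to -61, together with an HNF6 match from -200 to -195, a homeobox match from -159 to -154 and an AP-1 match from -225 to -219. Region 6 had an HNF1 match from 71 to 76 bases downstream of its summit, and region 2 held none of the motifs. No matches overlapped each other in these sequences. Of 34943 RefSeq promoter windows, 6.27% held the HNF6 letters, 10.4% the GATA letters, 6.9% the HNF1 letters, 4.85% the homeobox letters and 4.96% the AP-1 letters. A match is a description of the sequence and does not show that a factor was bound.

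Peaks were called by the authors in each library on its own. The lists held 82568 and 38295 peaks with DMSO and 84995 and 111324 with I-BET151 (replicates 1 and 2), and the reads behind them, estimated from the background of each list, numbered 38.7, 36.6, 12.5 and 16 M. A peak needed at least 10 and 11 reads at its summit in the DMSO lists and 5 and 6 reads in the I-BET151 lists. In the 25627 regions called in all 4 lists, the median fold enrichment of the summit over its local background was 5.16 and 4.60 with DMSO and 8.33 and 10.0 with I-BET151, a shift of 0.83 in log2. Values of HNF4A and HNF4G are therefore also given as percentiles, the rank of the peak by fold enrichment within its own list, where 100 is the top. Of 9 promoters of pancreatic progenitor genes, 5 were called in all 4 lists (NKX6-1, SOX9, FOXA2, GATA6 and MNX1), those of PDX1 and GATA4 in both I-BET151 lists only, and that of PTF1A in none. Of marker promoters of other cell types, 0 of 7 endocrine ones were called in all 4 lists (NEUROG3, NKX2-2, INS and GCG in none). The same held for 2 of 6 liver ones (APOA2 and CEBPA, with AFP and SERPINA1 in none). It also held for 3 of 4 intestinal ones (CDX2, VIL1 and LGR5, with CDH17 in none). Among the rest were 1 of 3 pluripotent ones (LIN28A, with POU5F1 and NANOG in none) and 2 of 5 mesenchymal ones (COL1A1 and TWIST1). Like those of PDX1 and GATA4, the promoters of TTR (liver) and of COL1A2 and PDGFRB (mesenchymal) were called in both I-BET151 lists only. That pattern was thus not particular to progenitor genes. Cells of other kinds thus cannot be told apart from progenitors with these promoters open, nor fewer open cells from less open chromatin per cell.

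At HNF4A, which spans chr20:44355699-44432845 in hg38, the main open sites were already called with DMSO. Of its 12 regions, 9 and 7 were called in the DMSO lists and 9 and 12 in the I-BET151 lists (75.0%, 58.3%, 75.0% and 100%, against 47.9%, 22.9%, 49.2% and 67.7% of all regions), and 6 (50.0%) were called in all 4, against 15.6% of all 164301 regions. Only 1 was gained, meaning that both I-BET151 lists had it and no DMSO list did, and none was lost, the reverse. Among all regions, 17.0% were gained and 2.37% were lost. Introns are given for HNF4A-202, an isoform of 10 exons that starts at P2 and was chosen among the 17 annotated transcripts.

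The P2 promoter, where 4 transcripts start between 44355699 and 44355805, lay in region 1 (chr20:44355205-44356111), which also lies within 1 kb of the start of the antisense gene R3HDML-AS1. Its fold enrichment was 5.94 and 5.81 with DMSO and 8.26 and 11.3 with I-BET151, from 47, 45, 38 and 113 reads at the summit. The groups did not overlap in fold enrichment, which was so in 90.1% of the shared regions. Its percentiles of 88.3 and 81.9 with DMSO and 79.4 and 89.6 with I-BET151 did overlap. In each library P2 was thus among the stronger peaks, and its place in the list moved by less than the spread between libraries.

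The P1 promoter lies 45540 bp downstream, with 13 transcripts that start between 44401239 and 44401401, and was covered by region 7 (chr20:44400654-44401572). Its fold enrichment was 4.27 and 3.29 with DMSO and 3.73 and 7.35 with I-BET151. The summit held 33 and 26 reads with DMSO and 11 and 47 with I-BET151, and the percentiles were 63.9, 21.8, 8.28 and 64.9. Both groups thus had a high and a low library at P1, and they overlapped in fold enrichment, reads at the summit and percentile. Per M estimated reads the summit held 0.853 and 0.710 with DMSO and 0.883 and 2.94 with I-BET151, without overlap. On that scale the same held in 97.4% of the shared regions. The change at P1 was 1.05 in log2, at the 7.15 percentile of the changes of all shared regions. By reads per M centred on each library's median, the difference at P1 was -0.88 in log2 (limma adjusted p = 0.134). P1 thus rose less than most shared regions.

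P2 exceeded P1 in all 4 libraries. The ratio of their fold enrichments was 1.39 and 1.76 with DMSO and 2.22 and 1.53 with I-BET151. In percentile points P2 stood 24.5, 60.1, 71.2 and 24.7 above P1 (mean 45.1 ± 24.1 SD, n = 4), with p = 0.125 in an exact two-sided sign-flip test, the smallest that 4 libraries can give. The distance between the promoters averaged 42.3 points with DMSO and 47.9 with I-BET151, and an exact two-sided permutation test of that difference gave p = 0.67, where 0.33 is the smallest possible with 2 against 2 libraries. The region at the upstream, pancreatic-type promoter was the more enriched one in both media, though it also lies near the start of R3HDML-AS1. A shift of the balance between the promoters was not detectable with these libraries.

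Within HNF4A, region 2 in intron 1 (chr20:44370509-44371274), 15236 bp downstream of the upstream start, had the highest mean percentile of the gene in both groups. Its percentiles were 96.4 and 90.9 with DMSO and 74.1 and 97.9 with I-BET151, from fold enrichments of 7.89, 7.12, 7.52 and 15.2 and summits of 32, 31, 16 and 67 reads. By percentile I-BET151 replicate 1 was the lowest and replicate 2 the highest of the 4 libraries, whereas DMSO replicate 2 was the lowest by fold enrichment. The gained region 6 (chr20:44394564-44394948), also in intron 1 and within 1 kb of a start of the antisense gene HNF4A-AS1, had percentiles of 39.2 and 59.7 from 13 and 28 reads, fold enrichments of 5.04 and 6.82. Its summit lay at -6477 bp from the P1 start. Regions 3 and 5 in the same intron were called in I-BET151 replicate 2 alone, at percentiles of 51.7 and 11.9.

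Of the other HNF4A regions, region 9 in intron 3 had percentiles of 44.2 and 49.4 with DMSO and 80.1 and 69.5 with I-BET151. Region 11, 1671 bp downstream of the gene, had 32.3 and 32.4 against 41.3 and 61.6. In both of these regions the I-BET151 libraries lay above the DMSO libraries in percentile, as they did in 40.8% of all shared regions. Region 12, 10039 bp downstream of the gene, had 90.0 and 69.7 with DMSO and 37.1 and 91.4 with I-BET151, so that the I-BET151 libraries stood on either side of the controls. Regions 4, 8 and 10 were called in 3 lists each, with percentiles from 0.508 to 82.6.

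HNF4G, which spans chr8:75407914-75566834, had more calls with I-BET151 than with DMSO. Of its 17 regions, 5 were called in each DMSO list (29.4%) and 10 and 14 in the I-BET151 lists (58.8% and 82.4%). The same shares over all regions were 47.9% and 22.9% with DMSO and 49.2% and 67.7% with I-BET151, so HNF4G was below them in DMSO replicate 1 and above them in the other libraries. Only 3 regions (17.6%) were called in all 4 lists, 5 (29.4%) were gained against 17.0% of all regions, and 1 (5.88%) was lost against 2.37%. No DMSO list called 12 of the 17 (70.6%), compared with 3 of 12 at HNF4A (25%) and 49.4% of all regions. The regions that DMSO lacked lay between 13725 bp and 167538 bp downstream of the upstream start, along introns 1, 2 and 6 and past the gene's end, in the isoform HNF4G-201 with 11 exons.

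The 5 gained HNF4G regions were weak to intermediate peaks. Region 6 (percentiles 35.9 and 39.4 from 12 and 23 reads) and region 9 (14.2 and 17.2 from 11 and 18 reads) lay in intron 1, and region 11 (43.7 and 35.8 from 9 and 12 reads) lay in intron 2. Region 13 in the same intron (39.8 and 60.7 from 14 and 26 reads) lay at -3914 bp from the downstream start site. Region 16 at chr8:75564804-75565189 (53.5 and 63.0 from 10 and 17 reads) was in the last part of the gene body. A further 7 regions were called in a single I-BET151 list, 2 in replicate 1 (11.8%, against 10.0% of all regions) and 5 in replicate 2 (29.4%, against 22.3%). Among the latter was region 17, 8618 bp downstream of the gene, at percentile 88.6 with a fold enrichment of 11 from 30 reads. The gained summits of 9 to 26 reads compare with the smallest callable summits of 10 and 11 reads in the deeper DMSO libraries. Per M estimated reads, the gained summits held 0.722 to 1.625. On that scale the smallest callable summits held 0.259 and 0.300 with DMSO and 0.401 and 0.375 with I-BET151. The part of depth in the calls was not tested. Among peaks with a −log10 p of at least 10 alone, neither gene had a gained region, where 23.3% of all regions were gained.

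Of the regions within 1 kb of the upstream promoter of HNF4G, where 3 transcripts start between 75407914 and 75408036, region 2 was called in all 4 lists and region 3 was lost. Region 2 (chr8:75406976-75408152), which covers the start sites, had fold enrichments of 4.75 and 4.49 with DMSO and 7.10 and 5.98 with I-BET151. The summits held 43, 42, 63 and 103 reads, and the percentiles were 75.3 and 60.8 with DMSO and 70.3 and 49.4 with I-BET151. Its fold enrichments did not overlap between the groups, as in 90.1% of the shared regions, and its percentiles did overlap. The change in fold enrichment was 0.50 in log2, below the median of the shared regions of 0.83. The downstream promoter, 131955 bp further along with 2 transcripts, had no region within 1 kb, and the nearest, region 14, lay 1449 bp away and was called in I-BET151 replicate 1 alone.

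Regions 3 and 1 of HNF4G stood lower with I-BET151 in calls or percentile. Region 3 (chr8:75408936-75409305), with its summit 1172 bp from the first start site in intron 1, was the single lost region of either gene, with percentiles of 82.2 and 23.4 and summits of 38 and 25 reads with DMSO. Region 1 (chr8:75402992-75403717), 4488 bp upstream of the gene, was called in all 4 lists and had percentiles of 88.9 and 84.2 with DMSO but 57.1 and 65.8 with I-BET151. Both I-BET151 libraries lay below both DMSO libraries, as in 10.3% of the shared regions. Its fold enrichment was 5.98 and 6.06 with DMSO and 5.95 and 7.45 with I-BET151, so that the groups overlapped while the medians of all shared regions did not. The local background under region 1 was 6.86 and 7.74 reads with DMSO and 7.40 and 15.1 with I-BET151, whereas the median over the shared regions was 4.58, 4.82, 2.22 and 4.53 reads. Per M reads its summit was higher with I-BET151, by 2.06 in log2, where the median of the shared regions was 1.901.

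Region 8 in intron 1 of HNF4G (chr8:75483349-75483801), 75666 bp downstream of the upstream start, had the highest fold enrichment of the gene in every library, although region 1 had more reads at its summit in each. Its percentiles were 96.1 and 91.4 with DMSO and 97.2 and 98.5 with I-BET151. Fold enrichments of 7.76 and 7.21 with DMSO compared with 13.4 and 15.8 with I-BET151, from 29, 29, 37 and 72 reads. The window around its summit held a FOXA match. Over the 29 windows of both genes, the GATA letters were found in 5 (14.2% of all regions), the HNF1 letters in 4 (8.21%), the homeobox letters in 4 (4.72%), the HNF6 letters in 3 (9.22%), the SOX letters in 3 (11.1%), the FOXA letters in 2 (4.57%) and the AP-1 letters in 2 (8.03%). None held the HNF4 core or the CTCF consensus, which 4.6% and 1.86% of all regions held.

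Across the 9 shared regions of both genes, the sequencing signal scaled to the estimated reads was higher with I-BET151 without overlap in all 9, as in 97.4% of all shared regions. The groups did not overlap in fold enrichment in 5 of the 9 (HNF4A regions 1, 9 and 11, and HNF4G regions 2 and 8), against 90.1% of all shared regions. By percentile, I-BET151 lay above in 3 (HNF4A regions 9 and 11, HNF4G region 8), against 40.8%, and below in 1 (HNF4G region 1), against 10.3%.

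Ranks were tested with limma on normal scores of the within-list ranks over all 25627 shared regions. With I-BET151, 875 regions moved up (3.41%) and 503 moved down (1.96%) at an adjusted p under 0.05. Of the 9 HNF4A and HNF4G regions, only HNF4G region 1 passed, with a shift of -1.41 (SE 0.378, adjusted p = 0.0429, limma). Without DMSO replicate 1 or DMSO replicate 2 its shift was -1.56 or -1.26 and no longer passed (limma adjusted p = 0.21 and 0.289), and by reads per M centred on each library's median the value was 0.13 in log2 (limma adjusted p = 0.731). The other 8 had shifts between -0.76 and 0.39 with adjusted p from 0.301 to 0.980 (limma). The value was -0.37 at HNF4A P2 (SE 0.383, adjusted p = 0.582) and -0.63 at P1 (SE 0.459, adjusted p = 0.414). Without I-BET151 replicate 2, HNF4A regions 2, 7 and 12 passed as lower (-1.41, -1.30 and -1.67, limma adjusted p = 0.0256, 0.0436 and 0.00665), and without I-BET151 replicate 1 the same regions had shifts of 0.20, 0.04 and 0.14. For these HNF4A regions each I-BET151 library alone thus gave the opposite sign to the other.

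**Figure D1:**
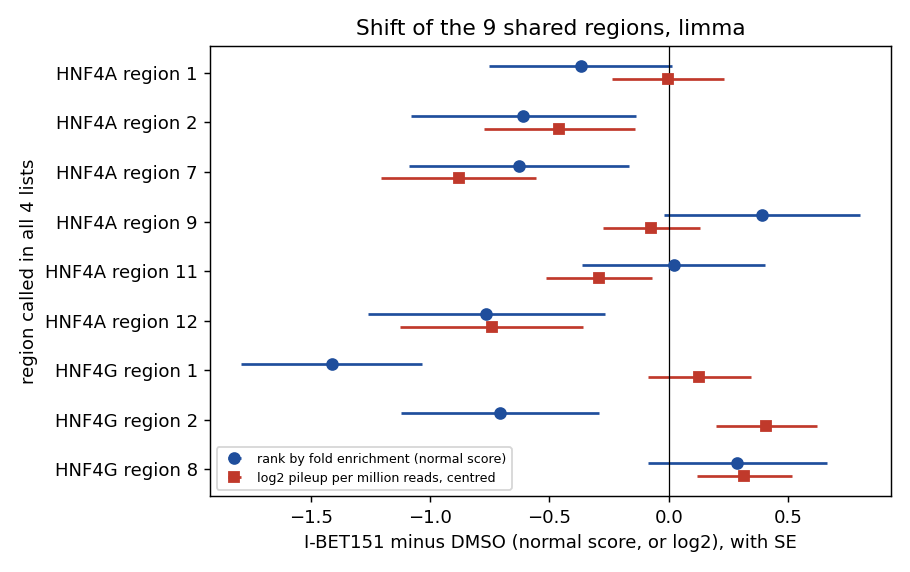
Difference between I-BET151 and DMSO for the 9 regions called in all 4 lists, as the shift of the normal score of the rank by fold enrichment (circles) and as the log2 reads per M centred on each library's median (squares), with the SE from limma as bars. HNF4G region 1 stands at -1.41 by rank and at 0.13 by centred reads.

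A locus score, the mean percentile over all regions of a gene with 0 where a region was not called, sums up each locus. Regions that entered the merged set through 1 group alone count as 0 in the other group. This holds for the 12 HNF4G regions that no DMSO list called. A test of the score is therefore not independent of how the regions were admitted. For HNF4A it was 44.2 and 33.7 with DMSO (38.9 ± 7.41 SD, n = 2) and 35.0 and 63.3 with I-BET151 (49.1 ± 20.02 SD, n = 2). I-BET151 replicate 1 lay between the DMSO libraries, and the exact permutation p for the difference of 10.2 was 0.67 (two-sided). Without I-BET151 replicate 2 the difference was -3.97. For HNF4G the score was 25.1 and 17.2 with DMSO (21.2 ± 5.58 SD, n = 2) and 28.5 and 40.7 with I-BET151 (34.6 ± 8.66 SD, n = 2). The HNF4G groups did not overlap, as in 51.3% of the 18865 protein-coding genes with a region, and the difference of 13.4 had an exact permutation p of 0.33 (two-sided), the smallest possible. Over the 3 HNF4G regions called in all 4 lists alone the difference was -9.73. Over those genes the median difference was 10.7, which places HNF4A at the 48.2 and HNF4G at the 59.2 percentile of differences. In level, HNF4A stood at the 82.0 percentile of all genes with DMSO and the 79.9 with I-BET151, and HNF4G at the 47.2 and 51.4.

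Both differences turned negative when every list was limited to its 38295 strongest peaks by p-value. HNF4A then kept 8 regions with scores of 42.3 and 50.6 with DMSO and 19.1 and 36.7 with I-BET151, a difference of -18.5. HNF4G kept 7 regions with scores of 48.9 and 41.8 against 21.4 and 25.7, a difference of -21.8. All I-BET151 values were below all DMSO values at both genes, as in 25.4% of the 17874 genes with a region under this limit, and the exact permutation p was 0.33 for each (two-sided). The median difference of those genes was -0.29, and HNF4A and HNF4G stood at the 10.1 and 6.83 percentile. At equal list length no region of either gene was gained, and 1 at HNF4A and 2 at HNF4G were lost, against 9.19% gained and 5.85% lost among all regions. Because p-values grow with depth and the DMSO libraries were deeper, depth and treatment cannot be told apart in this comparison.

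**Figure D2:**
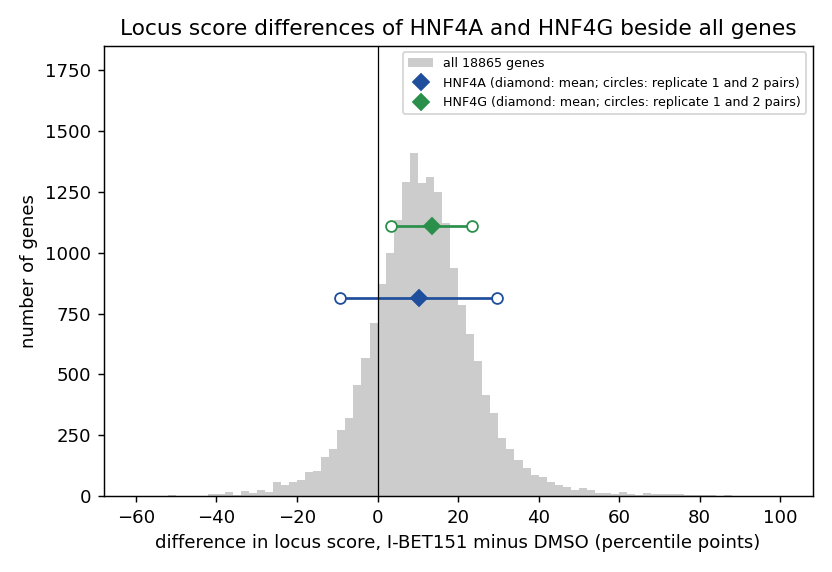
Number of protein-coding genes (grey bars) by the difference in locus score between I-BET151 and DMSO in percentile points, with HNF4A and HNF4G as diamonds and their same-numbered library pairs as open circles. HNF4A (10.2) and HNF4G (13.4) lie near the median of all genes (10.7), and the pairs of HNF4A fall on both sides of 0 (-9.21 and 29.6).

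The genes with the most similar locus scores over the 4 libraries, among those with a number of regions within 25% of the gene's own, were TMEM50B, IFNGR2 and OSBPL8 for HNF4A (Euclidean distances 6.74, 7.35 and 7.54 percentile points, of 3868 genes). For HNF4G they were PIP5K1B, PDXK and EIF4G3 (1.96, 3.02 and 3.06, of 1747 genes). IFNGR2, for example, had scores of 45.2 and 32.3 with DMSO and 37.5 and 56.6 with I-BET151, with I-BET151 replicate 2 above the other libraries as at HNF4A.

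The HNF4 network was also described from lists of its other genes. Of 12 regulators and partners, such as the pancreatic factors PDX1 and ONECUT1, 8 had higher locus scores with I-BET151 without overlap and 0 had lower ones, with a median difference of 9.72 and 29 gained and 5 lost regions among 121 (24.0% and 4.13%). Of 12 other receptors and cofactors that act at the same DNA element, such as the retinoid X receptor RXRA and the COUP factor NR2F2, 7 were higher and 0 lower (median 8.54; 22 gained and 3 lost of 138 regions). Of 20 target genes known from liver and intestine, 10 were higher and 0 lower (median 9.66; 19 gained and 2 lost of 162 regions), where APOA1, APOA4 and APOC3 lie side by side and share regions. These shares compare with 51.3% of all genes for a higher score without overlap, and with 17.0% gained and 2.37% lost among all regions. Over all genes the score difference was positive in 82.8%, with a median of 10.7. The share of all genes with lower scores without overlap is not given here, so the counts of 0 lower have no comparison. Among the targets, CYP7A1, the rate-limiting enzyme of bile acid synthesis, had the largest difference of the 20. It scored 0 in both DMSO libraries, where none of its 3 regions was called, and 43.2 and 73.7 with I-BET151. Its regions entered the merged set through I-BET151 peaks alone, so this difference is not independent of how regions were admitted. Scores of the other listed genes with gained or lost regions carry the same limit. FABP1, a fatty acid binding protein, had 59.5 and 35.0 with DMSO against 24.7 and 60.3 with I-BET151.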

How the data were processed

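The 4 libraries were mapped to DMSO or I-BET151 by their labels. Reads were aligned by the authors with Bowtie2 (2.2.5) to the hg38 build, and the authors called peaks per library with MACS2 (2.1.2), without pooling replicates. Each deposited list gives a fold enrichment (ratio of pileup to local background), a −log10 p-value and a −log10 q-value per peak, and a display score that was not used. The methods state a p-value threshold of 1e-05, but 7.54% to 10.9% of the deposited peaks lie above it, and the minimum peak width differed between replicate 1 (200 bp in each list) and replicate 2 (233 bp with DMSO, 256 bp with I-BET151). The pileup in whole reads was solved from fold and p-value and fitted 100% of the peaks within 0.001 of the −log10 p. Read numbers assume the default genome size of MACS2. They also take the shortest peak of each list as the length to which reads were extended, where the methods state 200 bp. Pileups carry counting error that an SD of 2 libraries does not hold.

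Overlapping peaks of the lists (1 bp or more) were joined. Promoters were start sites grouped within 500 bp, with regions within 1 kb. Regions at promoters, gained or lost, or strongest at each gene were described in full, with the 3 genes of most similar locus scores. Members and gene lists were chosen with earlier results of these data known. Ranks were tested with limma 3.58.1 (R 4.3.3, Benjamini-Hochberg), and other values with pandas 2.3.3, scipy 1.17.1 and numpy 2.4.6 under Python 3.11.15. The region calls, the pileup and the limma test were tested on simulated data. The replicate numbers in the labels were checked as pairs: deviations of same-numbered libraries had a correlation of -0.14 over 25627 regions, so the libraries were treated as unpaired. Alternatives were other peak thresholds, equal list lengths, a locus of 5 kb on each side, a minimum cover of 50%, other rank measures, regions called in all lists only, each library left out and a replicate block. ChIP-seq and RNA-seq were not used here.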

Additional observations from a re-analysis of the deposited data

How the results depend on the processing

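Of 156 alternative values for 17 results, 109 kept their direction and their side of the threshold, or stayed within 1.5 times of a count. The gained regions at HNF4A (1) numbered 0 with −log10 p of at least 10, 2 with at least 5, 0 at equal list lengths and 2 at a cover of 50%, and 1 to 3 with a library left out, and those at HNF4G (5) numbered 0 with at least 10, 0 at equal list lengths and 5 to 10 with a library left out. The lost regions at HNF4A (0) numbered 1 at equal list lengths and 0 to 1 with a library left out, and those at HNF4G (1) numbered 0 with −log10 p of at least 10, 2 at equal list lengths and 1 to 2 with a library left out. The locus score difference turned to -18.5 at HNF4A and -21.8 at HNF4G at equal list lengths, and to -9.73 at HNF4G over regions called in all 4 lists; with a library left out it ranged from -3.97 (without I-BET151 replicate 2) to 24.3 at HNF4A and from 7.30 to 19.5 at HNF4G. The 875 shared regions moved up and 503 moved down became 8 and 27 by −log10 p ranks, 174 and 1191 by centred pileup, and 192 to 1799 and 145 to 1734 with a library left out. With the replicate block the counts were 985 and 652 and the locus differences stayed at 10.2 and 13.4; a block with the numbers crossed, added after the data were seen because the pairing correlation was -0.14, gave 1985 and 1567 calls, and neither block changed the call of any HNF4A or HNF4G region. HNF4G region 1 (-1.41) was -0.51 by −log10 p ranks, 0.13 by centred pileup and -1.56 to -1.26 with a library left out. Other reversals came with a library left out at HNF4A regions 2 (-1.41 to 0.20), 7 (-1.30 to 0.044), 11 (-0.18 to 0.22) and 12 (-1.67 to 0.14), given as ranges, where the low values of regions 2, 7 and 12 were those without I-BET151 replicate 2 and the high ones those without I-BET151 replicate 1. By centred pileup HNF4A region 9 was -0.072, HNF4A region 11 was -0.29 and HNF4G region 2 was 0.41, and by −log10 p ranks HNF4G region 2 was 0.017. Causes were not tested. Summits of 9 to 28 reads limit the precision of the gained regions.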
